A study of Mus musculus with 6 samples.

Results

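Immunoglobulin gene segments and chains were measured in the blood of mice housed in an enriched environment (EE) or a standard environment (SE). They are the probe sets, or rows of the array table, whose gene symbol is Jchain or belongs to a variable (V), diversity (D), joining (J) or constant segment of the heavy, kappa or lambda chain. This rule found 35 of 41345 rows, which name 24 of the 23981 genes named in the table. The table held 6 arrays, each of whole blood RNA from 1 male CD1 mouse, an outbred stock, aged 9 weeks, with no inflammatory insult. Of these, 3 mice had spent 2 weeks in the enriched enclosure and 3 had spent them in the standard one. The enriched enclosure was larger and held a wheel, a nest house and a tunnel, and both kinds held nesting material and wood chip bedding. Which of the 6 mice shared an enclosure is not given in the sources used here.

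Antibodies are built from a pair of heavy chains and a pair of light chains, and each chain joins a variable to a constant part. B cells assemble the variable part by cutting and joining single V, D and J segments of their genome, so each B cell clone transcribes its own choice of segments. Resting B cells of blood carry IgM, with the heavy chain of Ighm, as their antigen receptor, and plasma cells secrete antibody in bulk. In mice the kappa chain is far more common than the lambda chain. RNA of a V segment in whole blood therefore depends on the number of B cells and plasma cells, on their RNA content and on which clones use that segment. In bulk blood, fewer B cells and less RNA per B cell cannot be told apart.

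The 35 rows fell into 7 classes. Heavy chain constant genes had 9 rows, of which 7 named Ighm and 2 named Ighg3, the heavy chain of IgG3. Heavy chain V segments had 3 rows (Ighv1-47, Ighv1-53 and Ighv1-54), kappa V segments 15 rows for 13 genes, and lambda V segments 1 row (Iglv1). There was 1 row each for Igkj1, a kappa J segment, and for Jchain, the small protein that links units of polymeric IgM and IgA. No row named the constant genes Ighd, Igha, Ighe, Ighg1, Ighg2b, Ighg2c, Igkc, Iglc1, Iglc2 or Iglc3, so the results do not cover them. The rule fits 396 genes of the GRCm38.p6 mouse genome annotation, against 24 genes named by the rows. The remaining 5 rows carried several symbols and are given under the joint name, written with slashes. The joint name Ighv1-54/Igkv1-135/Ighm combines genes of the heavy chain locus on mouse chromosome 12 and of the kappa locus on chromosome 6. V segments of a family are similar in sequence, and whether probes of 1 row also bind RNA of other segments was not tested. The rows are thus not independent measurements. Where several rows name the same gene they are told apart by the probe set number.

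The deposited values are log2 expression after robust multiarray average (RMA), which makes the arrays alike in distribution and summarizes each probe set. Following the study's filter, the main comparison kept rows that had an Entrez ID and a mean log2 value of at least 6.64 (100 on the linear scale). Row means on the linear scale are given here as mean log2 values turned back to that scale. All 35 rows had an Entrez ID, and 28 passed the minimum, leaving out 2 of 3 heavy V rows and 5 of 15 kappa V rows. Just inside it were 1 of the 3 rows of Igkv5-43 and Jchain, with means of 105 and 112 on the linear scale, and just outside it another Igkv5-43 row and Igkv6-14, at 98.5 and 88.3. A second fit took all 41345 rows, so that every immunoglobulin row had a value. The array of EE mouse 3 was unlike the rest, with a mean correlation with the others, across the 6154 rows of the main comparison, of 0.932, against 0.956 to 0.965 for each other mouse. It had 8255 rows at 100 or more on the linear scale, against 9027 to 9336 in the other mice. Results that rest on this mouse are given with and without it.

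No immunoglobulin row differed between EE and SE mice beyond the spread between mice. Rows with an unadjusted p under 0.05 in limma are here termed called. In the main fit these were 0 of 28 immunoglobulin rows, against 4.6% of the 6154 rows tested (1.46% higher and 3.14% lower in EE). In the fit over all rows they were 0 of 35, against 3.74% of 41345 (1.45% higher and 2.3% lower in EE). The lowest unadjusted p was 0.108 in the first fit and 0.119 in the second, both for the Ighg3 probe set 17284614, and no row passed an adjusted p of 0.05. An unmoderated t-statistic per row also called 0 in both fits, against 5.12% of the rows of the main fit and 3.91% of all rows. Array weights, which give less weight to arrays far from their group mean, gave 4 calls in the first fit, against 18.2% of its rows, and 0 in the second. The values of EE and SE mice overlapped in 35 of 35 rows. No overlap was seen in 8.37% of all rows of the table and in 9.67% of the rows of the main fit.
The EE mean was under the SE mean in 29 of 35 rows, against 51.6% of all rows, and in 23 of the 28 rows above the minimum, against 58.2% of the rows of the main fit. The median difference, EE minus SE, was -0.16 on the log2 scale over the 35 rows and -0.01 over all rows, with single rows between -0.80 and 0.31. Without EE mouse 3 this direction turned: the EE mean was over the SE mean in 27 of 35 rows, with a median difference of 0.10. The rows of the main fit turned as well, with a higher EE mean in 3912 of 6154, against 2570 with all mice. Over all 41345 rows the direction did not turn, with a higher EE mean in 19741, against 20002 with all mice. Without SE mouse 2 the median was -0.01, and without EE mouse 2 it was -0.37. The 95% interval of the difference lay within 1 log2 unit (2-fold) in either direction for 17 of the 28 rows tested in the main fit, so a 2-fold difference could not be told from none in the remaining rows. Leaving out a single mouse gave calls in the fit over all rows in 3 cases, and none of them passed an adjusted p of 0.05. Without EE mouse 2, the rows Ighg3 17284614, Ighm 17284507, Iglv1 and Igkv9-124 were called lower in EE (4 of 35, against 3.82% of all rows). Without EE mouse 3, Ighm 17284648, Ighv1-72/Ighm and Igkv6-23 were called higher in EE (3 of 35, against 6.38% of all rows). Without SE mouse 1, Ighg3 17284614 was called lower in EE (1 of 35, against 3.57% of all rows). In the main fit the same 3 cases gave 3, 2 and 2 calls of 28, against 3.82%, 11.5% and 4.52% of its rows.

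**Figure D1:**
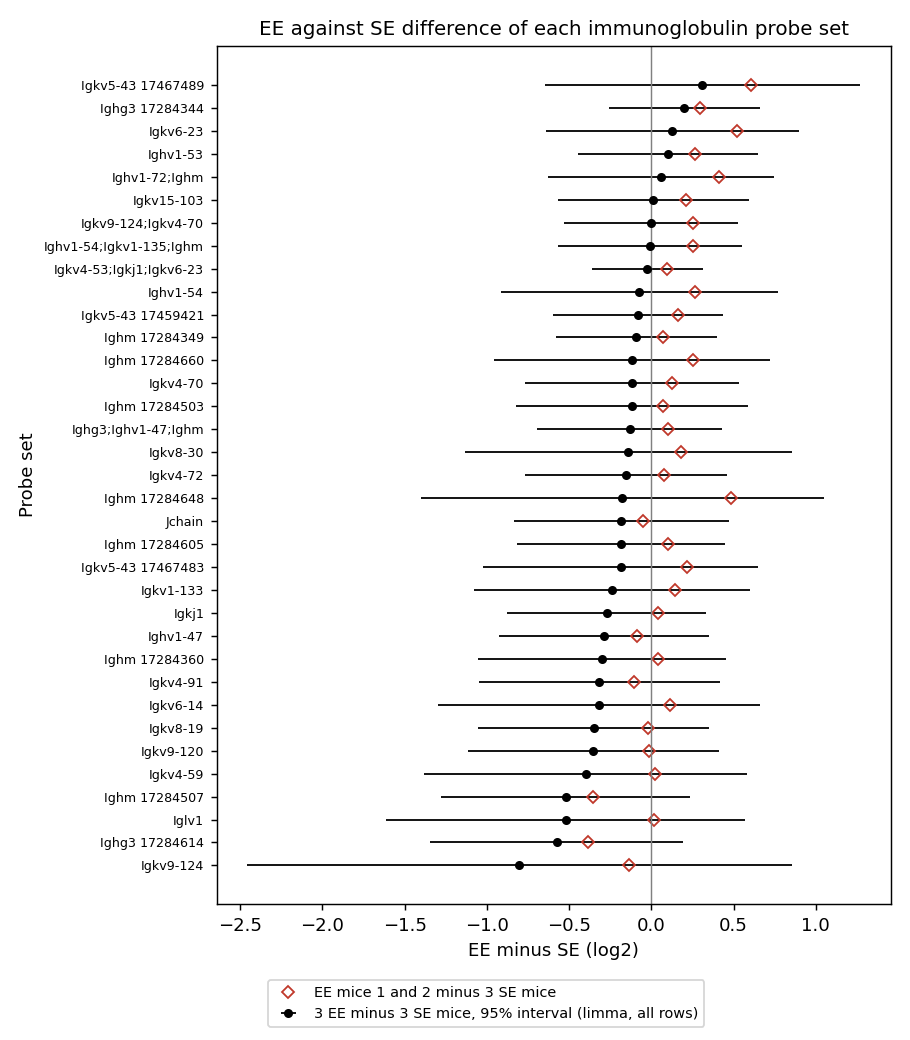
Difference between EE and SE mice (log2, horizontal axis) for each of the 35 immunoglobulin probe sets (rows), with filled points for 3 EE minus 3 SE mice, bars for the 95% interval of limma's fit over all rows, and open diamonds for EE mice 1 and 2 minus the 3 SE mice. All 35 intervals hold 0, 29 filled points lie left of 0, and 27 diamonds lie right of it.

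Among heavy chain constant genes, the Ighm rows shared a low value in EE mouse 3, and their differences between the group means ran from -0.52 to -0.09. Probe set 17284349 lay at 12.24, 12.29 and 11.78 in EE mice 1, 2 and 3, against 11.82, 12.34 and 12.41 in SE mice 1, 2 and 3. EE mouse 3 and SE mouse 1 were both low in this row, and its difference was -0.09 (95% interval -0.57 to 0.39, limma). Probe set 17284648 lay at 9.20, 9.53 and 7.38 in EE mice, against 8.93, 8.63 and 9.08 in SE mice. Here EE mouse 3 was 1.25 under the next lowest mouse, the 2 other EE mice lay above all SE mice, and the SD was 1.16 in EE and 0.23 in SE (n = 3 each). Its difference was -0.18 with all mice and 0.49 without EE mouse 3 (unadjusted p = 0.0351 from limma over all rows), 1 of the 3 rows that reached that threshold without this mouse.
A different order of mice was seen in probe set 17284507 of Ighm, at 8.61, 9.37 and 8.50 in EE mice, against 8.86, 9.89 and 9.29 in SE mice. EE mice 1 and 3 were both low and SE mouse 2 was high, a difference of -0.52 (95% interval -1.25 to 0.20, limma). This row kept a negative difference without EE mouse 3, of -0.36. Probe set 17284360, at 12.20, 11.62 and 10.90 in EE mice and 11.91, 11.60 and 12.11 in SE mice, had instead its highest value in EE mouse 1. The other Ighm rows, 17284503, 17284605 and 17284660, had differences of -0.12, -0.19 and -0.12 and were highest in EE mouse 2. All 7 Ighm rows had their lowest value in EE mouse 3, and 6 of 7 had a mean in EE mice 1 and 2 above the SE mean.
The 2 rows labelled Ighg3, the constant gene of a class-switched antibody, did not follow each other. Probe set 17284614 lay at 7.29, 8.16 and 7.16 in EE mice, against 7.61, 8.53 and 8.20 in SE mice, a difference of -0.58 (95% interval -1.31 to 0.16, limma). Its EE mice 1 and 3 lay under all SE mice and EE mouse 2 among them, an order close to that of Ighm probe set 17284507. Probe set 17284344 lay at 7.01, 7.27 and 6.86 in EE mice, against 6.48, 6.96 and 7.10 in SE mice, a difference of 0.20 (95% interval -0.25 to 0.65, limma). Its lowest value was in SE mouse 1, so it is the only constant row in which EE mouse 3 was not the lowest. The labels give no account of which part of the transcript each row covers. By probe set number, Ighg3 17284614 and Ighm 17284605 lie between Ighv1-54 (17284582) and Ighv1-72/Ighm (17284633). Whether the rows of this class measure constant parts or V segments was not tested.

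**Figure D2:**
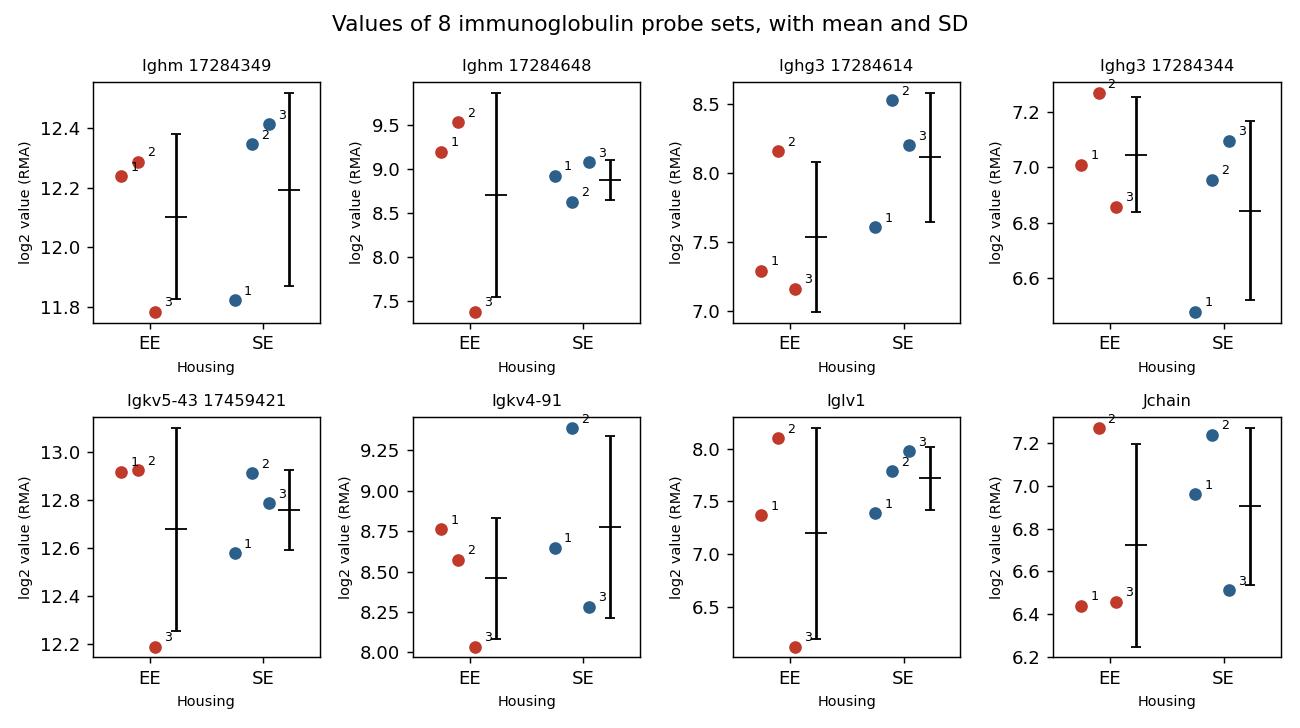
Log2 values (vertical axes, RMA, each with its own range) of 8 immunoglobulin probe sets in the EE mice (red, left) and SE mice (blue, right), with the mouse number beside each point and the mean and SD (n = 3) in black. EE mouse 3 is lowest in 6 of the 8 probe sets, the exceptions being Ighg3 17284344 and Jchain.

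Heavy chain V segments were represented by the Ighv1 family, the largest V family of the mouse heavy chain locus. Ighv1-53 lay at 8.66, 9.34 and 8.51 in EE mice, against 8.55, 8.73 and 8.93 in SE mice. EE mouse 2 was the highest, the other 5 mice lay between 8.51 and 8.93, and the difference was 0.10 (95% interval -0.43 to 0.63, limma). Ighv1-47 and Ighv1-54 were under the expression minimum, with means of 64.3 and 8.45 on the linear scale and differences of -0.29 and -0.07 in the fit over all rows. Ighv1-47 was highest in SE mouse 3 and Ighv1-54 in EE mouse 1, so the 3 segments each had another mouse on top, while EE mouse 3 was lowest in all 3.
The 5 rows with several symbols ranged over 0.36 to 1.14 between mice, with EE mouse 3 lowest in each. Ighv1-54/Igkv1-135/Ighm lay at 12.45, 12.68 and 11.78 in EE mice, against 12.14, 12.49 and 12.30 in SE mice. Igkv9-124/Igkv4-70 lay at 13.26, 13.28 and 12.50 in EE mice, against 12.90, 13.14 and 13.01 in SE mice. In both rows EE mice 1 and 2 were high, EE mouse 3 was low and the group means were nearly equal, with differences of -0.01 and -0.00. Ighv1-72/Ighm lay at 10.14, 10.31 and 9.17 in EE mice, against 9.72, 9.73 and 10 in SE mice. Its EE mice 1 and 2 lay above every SE mouse, and its difference was 0.06 with all mice and 0.41 without EE mouse 3 (unadjusted p = 0.0240 from limma over all rows). Ighg3/Ighv1-47/Ighm had a difference of -0.13 and Igkv4-53/Igkj1/Igkv6-23 one of -0.02. The row Igkv4-53/Igkj1/Igkv6-23 ranged over 0.36 across the 6 mice, the narrowest range of the 35 rows, and lay at 13.17 to 13.53, where the highest row of each array lay at 13.93 to 14.01. The 6 rows with a mean of 12 or more had a median range of 0.76 and the other 29 rows one of 1.30. Whether strong signals were compressed was not tested.

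Kappa V segments supply the variable part of most mouse light chains, and they had low values in EE mouse 3 and, in many rows, high values in SE mouse 2. Of 15 rows, 13 were lowest in EE mouse 3, 12 had a lower mean in EE, and 9 were highest in SE mouse 2. That mouse was highest in 12.7% of all rows and in 10.5% of the 6154 rows of the main fit. Igkv5-43 probe set 17459421 lay at 12.92, 12.92 and 12.19 in EE mice, against 12.58, 12.91 and 12.78 in SE mice. Apart from EE mouse 3 its values lay between 12.58 and 12.92, and its difference was -0.08 (95% interval -0.59 to 0.43, limma). The 2 other rows of Igkv5-43 differed from it and from each other, with differences of -0.19 for 17467483 and 0.31 for 17467489, and 17467489 lay at 7.50 in EE mouse 1 and at 5.99 in SE mouse 1.
The 4 rows of the Igkv4 family, Igkv4-59, Igkv4-70, Igkv4-72 and Igkv4-91, all peaked in SE mouse 2, by 0.26 to 0.63 over the next mouse, and had differences of -0.40, -0.12, -0.16 and -0.32. Igkv4-91 lay at 8.76, 8.57 and 8.04 in EE mice, against 8.65, 9.39 and 8.28 in SE mice. SE mice 1 and 3 lay among the EE mice, and the difference of -0.32 (95% interval -1.02 to 0.39, limma) came with an SD of 0.56 in SE and 0.38 in EE. Igkv8-30 also peaked in SE mouse 2, at 7.38, 7.20 and 6.34 in EE mice, against 6.61, 8.0 and 6.73 in SE mice, with a difference of -0.14. Igkv6-14 and Igkv8-19, both under the expression minimum, were lowest in EE mouse 3 and had differences of -0.32 and -0.35 in the fit over all rows. With Igkv6-14, Igkv8-19, Igkv9-120 and Igkv15-103 these are the 9 rows that peaked in SE mouse 2, and 5 of the other 6 peaked in EE mouse 2. Igkv1-133 was highest in EE mouse 2, at 9.91, with a difference of -0.24. Igkv6-23 lay at 6.44, 6.58 and 5.33 in EE mice, against 5.93, 6.24 and 5.80 in SE mice, so that EE mice 1 and 2 lay above every SE mouse and EE mouse 3 below. Its difference was 0.13 with all mice and 0.52 without EE mouse 3 (unadjusted p = 0.0171 from limma over all rows). This row was under the expression minimum, with a mean of 66.5 on the linear scale. The row Igkv4-53/Igkj1/Igkv6-23 had a difference of 0.10 without EE mouse 3 (unadjusted p = 0.445 from limma over all rows).
Igkv9-124 had the widest range of all 35 rows, at 5.03, 6.85 and 3.95 in EE mice, against 6.60, 5.35 and 6.28 in SE mice. Low values were found in EE mice 1 and 3 and in SE mouse 2, which was the mouse with the highest values of 9 other kappa V rows. The row lay under the expression minimum, and its difference of -0.80 had a 95% interval of -2.46 to 0.85 in the fit over all rows. Igkv9-120, of the same family, lay at 10.50, 10.59 and 9.54 in EE mice, against 10.09, 10.83 and 10.76 in SE mice, a difference of -0.35, and did not show that pattern. Nor did the row Igkv9-124/Igkv4-70, which also names Igkv9-124 and ranged over 0.78, with a difference of -0.00. Igkv15-103, at 9.46, 9.71 and 9.00 in EE mice and 8.99, 9.74 and 9.41 in SE mice, had a difference of 0.01 and was lowest in SE mouse 1. The kappa joining segment Igkj1 lay at 9.21, 9.12 and 8.23 in EE mice, against 9.07, 9.22 and 9.09 in SE mice. Its 3 SE mice had an SD of 0.08, and EE mouse 3 lay 0.84 under the next lowest mouse.

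Iglv1, a lambda V segment, had the lowest value of EE mouse 3 relative to the SE mean among rows above the minimum. It lay at 7.37, 8.10 and 6.12 in EE mice, against 7.39, 7.79 and 7.98 in SE mice. EE mouse 3 was 1.25 under the next lowest mouse, EE mouse 2 was the highest, and the difference was -0.52 with all mice (95% interval -1.56 to 0.51, limma) and 0.02 without EE mouse 3. Jchain, which is transcribed at high level in antibody-secreting cells, lay at 6.44, 7.27 and 6.46 in EE mice, against 6.96, 7.24 and 6.51 in SE mice. Low values occurred in EE mice 1 and 3 and in SE mouse 3, so both groups held high and low mice. The difference was -0.18 (95% interval -0.81 to 0.45, limma).
Of the 24 genes named by the rows, 1 had a promoter window in the RefSeq-derived table used here, Jchain, which is shown for that reason. A link between this window and the values of Jchain was not tested. The 250 bases before its start on mouse chromosome 5 (GRCm38.p6, chr5:88527898-88528147, minus strand) read 5′ to 3′ as follows.
Jchain: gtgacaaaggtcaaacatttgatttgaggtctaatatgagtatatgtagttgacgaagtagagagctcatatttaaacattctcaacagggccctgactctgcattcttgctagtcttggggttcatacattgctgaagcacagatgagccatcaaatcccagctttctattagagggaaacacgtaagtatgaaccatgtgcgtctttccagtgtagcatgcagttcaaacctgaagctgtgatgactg
The octamer ATGCAAAT, a textbook element of V segment promoters that binds Oct factors, and the TATA motif TATAAA were searched on both strands. Neither was in this window, so no base is in capitals. Among 32851 windows of the same length, 1.6% held the octamer and 12.4% the TATA motif.

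Across the 6 mice, the main difference among immunoglobulin rows was between EE mouse 3 and the rest. It was the lowest mouse in 31 of 35 rows, against 24.6% of all rows. Among the 28 rows above the minimum it was lowest in 24, against 50.1% of the rows of the main fit. In those 31 rows it lay between 0.04 and 1.25 under the next lowest mouse, with a median of 0.42. The exceptions were Jchain, Igkv15-103, Ighg3 probe set 17284344 and Igkv5-43 probe set 17467489. Among the other 5 mice, SE mouse 1 was lowest in 23 of 35 rows. It was the lowest of these 5 in 24.2% of all rows and in 27.8% of the rows of the main fit. The highest mouse of all was EE mouse 2 in 17 rows and SE mouse 2 in 13. No row had its highest value in EE mouse 3 or in SE mouse 1.
Immunoglobulin rows spread widely between mice of the same housing. The median range over the 6 mice, of both housings, was 1.19 on the log2 scale over the 35 rows. It was 0.51 over all rows and 0.56 over the rows of the main fit. A range of more than 1 was seen in 24 of the 35 rows, against 13.45% of all rows. Among the 28 rows above the minimum it was seen in 17, against 12.69% of the rows of the main fit. Without EE mouse 3 the median range was 0.78, against 0.40 over all rows and 0.37 over the rows of the main fit. In SE mice alone, the median SD was 0.32 over the 35 rows, 0.15 over all rows and 0.13 over the rows of the main fit, and in EE mice it was 0.55, 0.19 and 0.22. The SD was larger in EE in 26 of 35 rows, against 59.1% of all rows and 67.6% of the rows of the main fit.
Heavy and kappa rows had similar medians in each mouse. For each mouse, the median over rows of the value minus the SE mean was -0.08, 0.22 and -0.75 in EE mice and -0.26, 0.13 and 0.20 in SE mice for the 12 heavy chain rows with 1 symbol. For the 16 kappa rows with 1 symbol it was 0.08, 0.15 and -0.83 in EE mice and -0.37, 0.32 and -0.02 in SE mice. The 2 medians lay within 0.22 of each other in every mouse, and the difference between the classes was not tested.

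**Figure D3:**
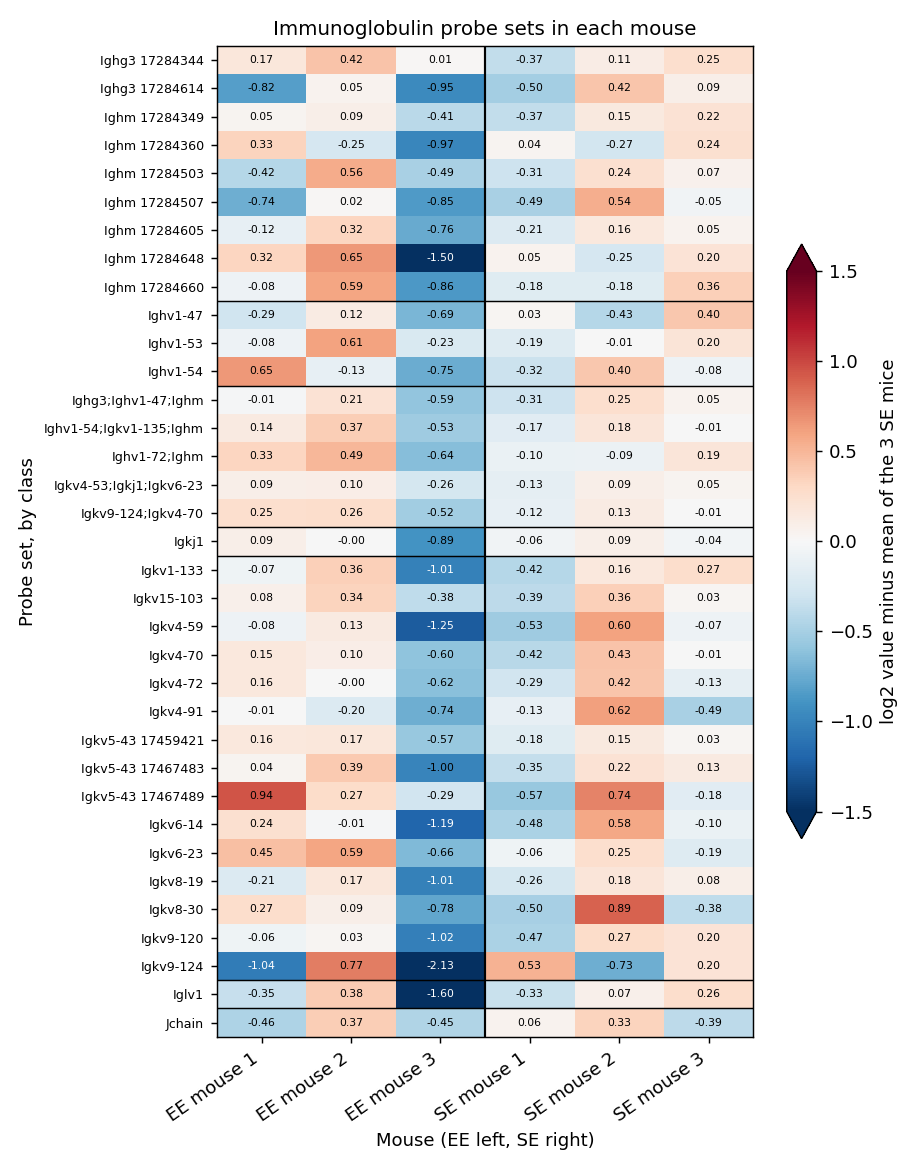
Deviation from the SE mean (log2) of the 35 immunoglobulin probe sets (rows, grouped by class) in EE mice (left 3 columns) and SE mice (right 3 columns), with blue below and red above the SE mean and colours capped at 1.5. EE mouse 3 is blue in nearly every row, down to -2.13 for Igkv9-124, and SE mouse 2 is red for most kappa V rows.

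The immunoglobulin rows and B cell markers had the same 2 lowest mice. Genes of a list are termed measured if they had a row of their own that passed the filter of the main fit. Over 22 measured B cell markers of the 25 listed, among them the B cell receptor partners Cd79a and Cd79b and the surface protein Ms4a1 (CD20), the median value minus the SE mean was 0.01, 0.05 and -0.78 in EE mice and -0.30, 0.13 and 0.14 in SE mice. Over the 35 immunoglobulin rows it was 0.05, 0.21 and -0.74 in EE mice and -0.29, 0.18 and 0.05 in SE mice. EE mouse 3 was thus lowest and SE mouse 1 next in both, and 21 of the 22 B cell markers had their minimum in EE mouse 3. The highest mouse was not shared: B cell markers peaked in SE mouse 3 in 9 of 22 cases, in SE mouse 2 in 7 and in EE mouse 2 in 3, and the immunoglobulin rows in SE mouse 3 in 2 of 35. Relative to the B cell median of the same mouse, 29 of the 35 rows lay within 0.5 of it in EE mouse 3, with a median of 0.04 and extremes of -1.36 for Igkv9-124 and 0.79 for Ighg3 probe set 17284344. Relative to that median, 22 rows had a higher and 13 a lower mean in EE than in SE, with a median difference of 0.07. In a fit over all rows with the B cell median as a covariate, limma called 0 of the 35 rows, against 5.2% of all rows.
Plasma cell markers had a narrower spread. Over 9 measured markers of 16 listed the median was 0.06, 0.04 and -0.12 in EE mice and 0.03, 0.11 and -0.01 in SE mice. Sdc1, Prdm1 and Tnfrsf17, which define plasma cells, were under the expression minimum, and the measured ones, such as Xbp1, Ell2 and Tent5c, are also used by other blood cells. The markers that moved with EE mouse 3 were not those of B cells alone. T cell markers were at -0.39 in EE mouse 3, against 0.36 to 0.43 in the other EE mice and -0.17 to 0.20 in SE mice, and platelet markers were at 0.66, against 0.12 to 0.17 in the other EE mice and -0.48 to 0.38 in SE mice. In limma's main fit 8 of 9 measured neutrophil markers of 12 listed were called higher in EE, against 1.46% of rows. Of 8 measured red cell markers of 10 listed, 8 were called lower, against 3.14% of rows. None of either passed an adjusted p of 0.05. The neutrophil list held S100a8 and S100a9, which the paper reported as raised on these arrays, so its count was partly fixed in advance. The part of these cell types, and of EE mouse 3 as an array, in the immunoglobulin values was not tested.

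**Figure D4:**
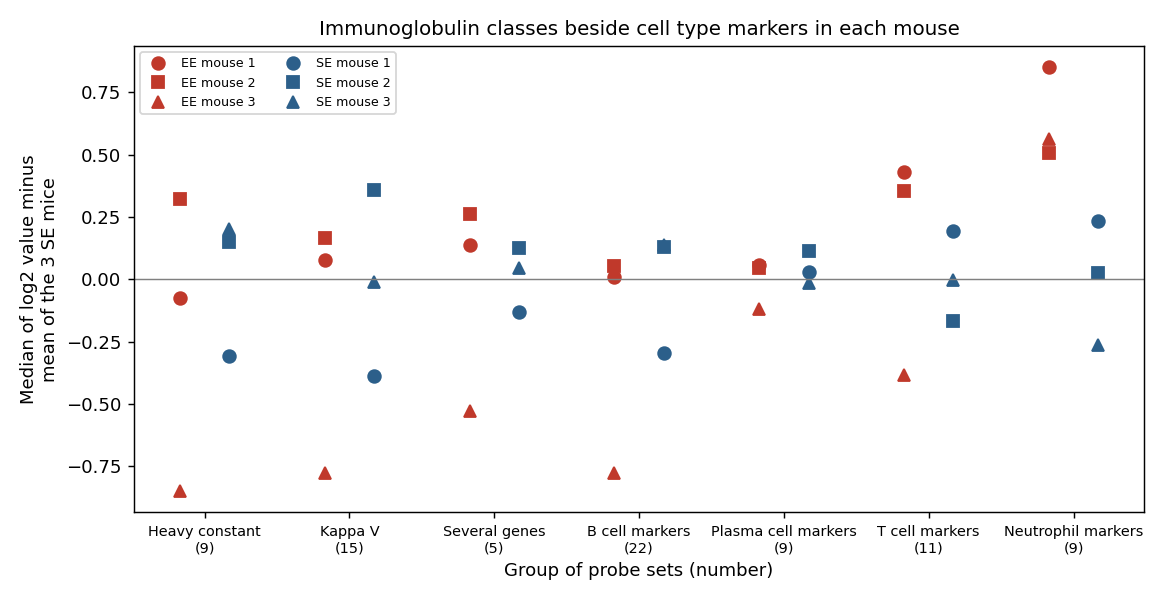
Median deviation from the SE mean over probe sets (log2, vertical axis) for 3 classes of immunoglobulin rows and 4 lists of cell type markers, with red symbols for EE mice, blue for SE mice and the symbol shape for the mouse number. EE mouse 3 is lowest for heavy constant rows (-0.85), kappa V rows (-0.78), rows with several genes (-0.53) and B cell markers (-0.78), and at -0.12 for plasma cell markers.

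Genes that assemble, transcribe and secrete antibody did not pass the test either. Partners of the membrane immunoglobulin, which carry its signal, had 8 measured genes with a median difference of -0.17. Cd79a lay at 11.44, 11.40 and 10.64 in EE mice, against 11.27, 11.44 and 11.34 in SE mice, again low in EE mouse 3 alone. Of 15 measured regulators of immunoglobulin transcription the median difference was -0.19. Pax5, which sets B cell identity, had a difference of -0.21 (standard error 0.22), Pou2af1, the octamer coactivator, one of -0.23 (standard error 0.24), and Spi1, which myeloid cells also express, one of 0.38 (standard error 0.18).
Antibody folding and secretion had 12 measured genes with a median of -0.04, among them Mzb1, a chaperone of IgM, at -0.18 (standard error 0.17) and Xbp1, the regulator of the secretory programme, at 0.21 (standard error 0.15). In each of these 3 lists limma called 0 genes, as it did among B cell, plasma cell, T cell and platelet markers. For V(D)J recombination and early B cells, 13 of 15 listed genes had a row of their own, 3 were measured and 0 were called. For class switching and hypermutation, 5 of 10 listed genes had a row of their own and 0 were measured. The recombinases Rag1 and Rag2 and the polymerase Dntt, which mark developing lymphocytes, were under the minimum or had no row of their own.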

How the data were processed

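Whole blood RNA of 3 EE and 3 SE mice was measured on Affymetrix whole-transcript arrays, 1 per mouse. The authors normalized the arrays by RMA (Bioconductor affy) and deposited a table of log2 values, used here unscaled. The methods name an earlier version of the array than the probe annotation given for the table, and which genome build was used is not given in the sources used here. Groups came from the sample titles. Rows were named by that annotation, in which 23521 rows have 1 symbol and 1820 several. EE and SE mice were compared by a linear model per row without covariates (limma 3.58.1, functions lmFit and eBayes, R 4.3.3). Benjamini-Hochberg adjustment was over all rows fitted. These were the 6154 with an Entrez ID and a mean log2 value of at least 6.64 (100 on the linear scale), or all 41345. Called means an unadjusted p under 0.05, the study's threshold, which it joins with a fold of 2. Gene lists take each gene's row with the highest mean. The members, gene lists and tests were chosen with earlier results of these data known. The naming rule took constant genes, Jchain, the smallest p-values and the widest ranges. The code was tested on simulated data. P-values weigh the difference between the groups against the spread between mice of a group. They treat the mice as independent, although the paper housed mice in groups. Since shared enclosures are not given, an effect of the enclosure cannot be told apart from one of housing. The number of arrays limits precision, with no depth to give. Alternatives covered the filters, the scaling, limma's settings, the mouse number and each mouse left out, and the B cell covariate and ranges without EE mouse 3 were added after seeing the data.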

Additional observations from a re-analysis of the deposited data

How the results depend on the processing

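The count of called immunoglobulin rows was 0 in both fits and stayed 0 after centring arrays on their medians, repeating quantile normalization, a trended robust prior, an unmoderated t-statistic and a B cell covariate, and in the main fit also with other expression minima or rows without an Entrez ID kept. In the main fit it was 4 with array weights (Ighg3 17284614 and Ighm 17284507 lower, Ighm 17284648 and Ighv1-72/Ighm higher in EE). With the mouse number as a block it was 2 in either fit (Ighg3 17284614 and Ighm 17284507, both lower in EE), against 3.53% of the rows of the main fit and 3.78% of all rows. Whether the numbers pair EE with SE mice is not given in the sources used here. Deviations from the group means, across 6154 rows, correlated at -0.26, 0.055 and -0.31 for numbers 1, 2 and 3. These values cannot decide it, because the deviations of the 3 mice of a group sum to 0. With each mouse left out the count ranged from 0 to 3 in the main fit and from 0 to 4 in the fit over all rows. Without EE mouse 3 the difference of Ighm probe set 17284648 turned and was called, at 0.49, and leaving out single mice gave that row values of -0.59 to 0.49. The median difference over the 35 rows lay between -0.37 and 0.10 with a mouse left out and between -0.18 and -0.10 under the other settings. Of the 35 differences, 21 changed sign without EE mouse 3, 17 with the B cell covariate, 8 with array weights and 2 with repeated quantile normalization. Rows near the expression minimum are limited by signal, and all intervals by 3 mice per group.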
